A study of Mus musculus with 28 samples.

Results

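The clustered protocadherin genes were taken as every protein-coding gene of the GENCODE M21 annotation on mouse chromosome 18 whose symbol begins with Pcdha, Pcdhb or Pcdhg followed by a digit or by a, b or c, which gave 57 genes of 21951 protein-coding genes. They comprised 14 alpha, 22 beta and 21 gamma genes, laid out in that order on the plus strand over 911.69 kb of the mm10 build (chr18:36930184-37841873). The rule uses annotation and no measured value. The symbol Pcdha11 is carried by 2 of the genes, which are told apart here by identifier (ENSMUSG00000007440 and ENSMUSG00000102206). The nearest RefSeq start to the first of these is that of Pcdha10, 117 bp away, and no other gene among the 57 is named Pcdha10.

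The study profiled histone marks by CUT&RUN, in which an antibody directs a nuclease to cut and release the DNA around a mark, in nuclei of the 2 kinds of medium spiny projection neuron of the mouse striatum. Mice carried Cre-dependent Sun1-sfGFP, a green fluorescent tag on the nuclear membrane (R26-CAG-LSL-Sun1-sfGFP, on C57BL/6J), together with A2a-cre, which marks indirect pathway neurons, or Drd1-cre, which marks direct pathway neurons, and tagged nuclei were pulled out with an anti-GFP antibody (INTACT). Male and female animals of about 8 weeks were used, and no group received a treatment. Each of the 4 deposited lists read here pools 2 samples: H3K4me3 peaks and H3K27me3 islands for A2a nuclei, named after the Cre driver, and the same for D1 nuclei.

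A group is therefore whatever nuclei the driver tagged in the tissue taken, and each list averages over many nuclei. Because the samples were pooled before the lists were made, no value below has a spread between replicates, and no difference between lists was tested. Both samples behind the D1 H3K27me3 list are labelled D1 in title and cell type but A2a in the source field, and were taken as D1. In that list the promoter of Adora2a, the adenosine receptor of indirect pathway neurons, lay under an island of 45.0 kb, while the A2a list had no island there. At Drd1, the dopamine receptor of direct pathway neurons, the islands were 1.80 kb in D1 and 16.8 kb in A2a. Of 4 interneuron genes (Chat, Sst, Pvalb and Npy), all had a promoter island and none a promoter peak in either cell type. H3K4me3 peaks were present at 4 of 6 oligodendrocyte genes in each list, at 1 of 4 astrocyte genes (Slc1a3) in each list, and at 1 of 4 microglial genes (P2ry12) in A2a and 0 of 4 in D1. Olig1, Olig2 and Slc1a3, which are among these, also had an island in both lists. Aldh1l1 and Cx3cr1 had an island and no peak in A2a. Over all protein-coding genes a promoter peak was found at 58.2% in A2a and 55.8% in D1, and a promoter island at 21.6% and 15.3%. The part of glial chromatin in the values below was not tested.

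Clustered protocadherins are cadherin-family proteins of the neuronal surface that recognise matching copies on other membranes and help a neuron tell its own processes from those of its neighbours. Each alpha and gamma gene consists of its own large first exon, with its own promoter, spliced to constant exons that all genes of the cluster share, while beta genes are mostly single exons. Individual neurons switch on a few of these promoters in a largely random choice that depends on CTCF, cohesin and distant enhancers, except that the C-type genes at the ends of the alpha and gamma clusters (Pcdhac1, Pcdhac2, Pcdhgc3, Pcdhgc4 and Pcdhgc5) are used by most neurons. H3K4me3 marks promoters that are active or poised, and H3K27me3 is the mark laid down by Polycomb complexes at silenced developmental genes.

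The annotation showed the same arrangement. All 14 alpha genes shared 3 exon starts and all 21 gamma genes shared 3 others, whereas 18 of the 22 beta genes had 1 exon. Neighbouring 5′ ends lay a median of 7.32 kb apart in the alpha cluster, 7.78 kb in the beta cluster and 5.35 kb in the gamma cluster. A promoter was read as the window from 2 kb upstream to 1 kb downstream of the annotated 5′ end, and a mark was counted when it overlapped the window by at least 1 bp. The windows of the 57 genes did not overlap, and every H3K4me3 peak found in them belonged to 1 gene only.

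Nearly every promoter carried H3K4me3 and none carried H3K27me3. A promoter H3K4me3 peak was present at 56 of 57 genes (98.2%) in A2a nuclei, against 58.2% of all protein-coding genes, and at 48 of 57 (84.2%) in D1 nuclei, against 55.8%. A promoter H3K27me3 island was present at 0 of 57 genes in both lists, against 21.6% of all protein-coding genes in A2a and 15.3% in D1. The 2 marks together were accordingly found at 0 of 57 promoters, against 9.53% in A2a and 5.56% in D1.

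Other gene families that are also tightly arrayed or closely related carried other combinations. All 39 genes of the Hox clusters, the transcription factors that pattern the body axis, had a promoter island in both lists, and a peak was found at 2 of them in A2a (Hoxa7 and Hoxd1) and at 1 in D1 (Hoxa7). Of 12 non-clustered protocadherins, single genes of the same superfamily spread over the genome, 11 had a peak in each list, the exception being Pcdh12. An island was present at 4 of these 12 in A2a (Pcdh8, Pcdh15, Pcdh18 and Pcdh20) and at 5 in D1, where Pcdh17 was added with an island of 1.40 kb. The contrast between 0 of 57 clustered and 4 or 5 of 12 non-clustered genes is a description of 4 pooled lists.

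**Figure D1:**
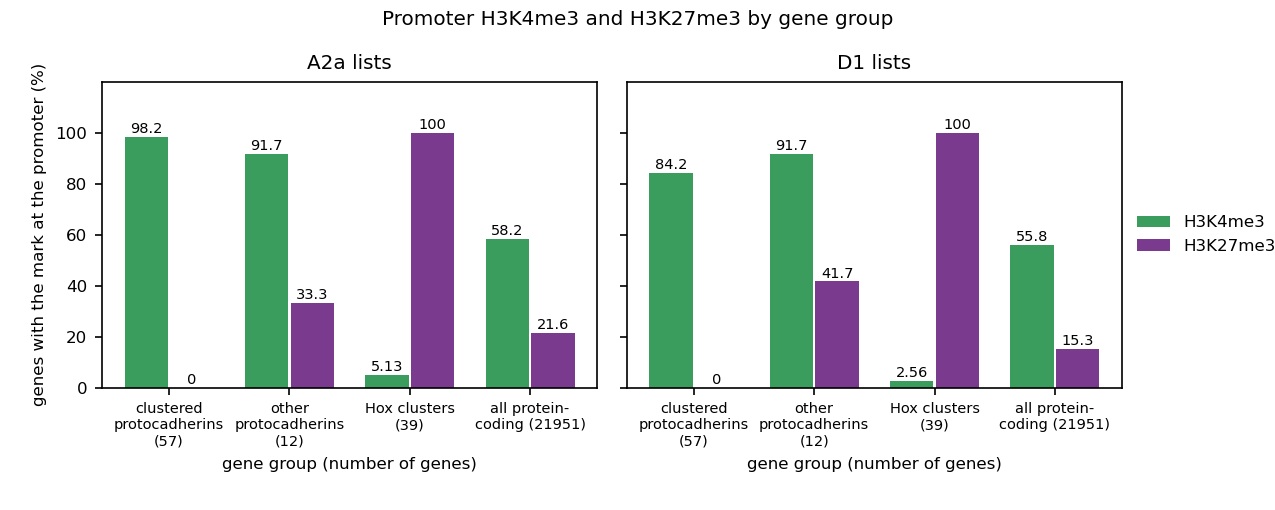
Percent of genes with each mark at the promoter (vertical axis, 0 to 100%) in the A2a lists (left) and the D1 lists (right), for clustered protocadherins, non-clustered protocadherins, Hox clusters and all protein-coding genes, with no error bars because each list pools its samples. Clustered protocadherins have H3K4me3 at 98.2% and 84.2% and H3K27me3 at 0%, and the Hox clusters have H3K27me3 at 39 of 39 genes.

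The absence of islands reached beyond the promoters. Islands covered 0% of the alpha cluster (257.478 kb), of the beta cluster (259.542 kb) and of the gamma cluster (180.081 kb) in both lists, whereas they covered 11.04% of the genome in A2a and 6.76% in D1. Over the whole locus a single island was listed, between the beta and gamma clusters. It spanned chr18:37646601-37652000 in A2a (5.40 kb and 502 reads, at the 84.8th percentile of islands by reads) and chr18:37646001-37652000 in D1 (6.00 kb and 219 reads, at the 84.0th percentile). This island lay between Taf7, which encodes a subunit of the general transcription factor TFIID, and Pcdhga1, whose promoter window was the nearest of any member at 7.79 kb.

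From the last island before the alpha cluster to this one, 915.6 kb of A2a chromatin and 916.4 kb of D1 chromatin held no island. Among the stretches between consecutive autosomal islands, 181 of 59641 were longer in A2a and 264 of 45479 in D1, which placed these stretches at the 99.7th and 99.4th percentile. Beyond the island, the next was listed after 345.6 kb in A2a and after 289.0 kb in D1, past the end of the gamma cluster in both. The median member window lay 172 kb from the nearest island in A2a and 171 kb in D1. Islands are called from local read density, and an unlisted region can hold signal under the caller's threshold.

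The H3K4me3 peaks were as densely packed as the promoters. The locus held 62 peaks in A2a and 54 in D1, or 6.80 and 5.92 per 100 kb, where the genome held 0.826 and 0.734 per 100 kb. Of these, 56 and 48 were at member promoters and 6 in each list were elsewhere. The gamma cluster was densest, at 12.2 peaks per 100 kb in A2a and 11.7 in D1, followed by the beta cluster at 8.48 and 6.55 and the alpha cluster at 5.83 and 5.05.

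**Figure D2:**
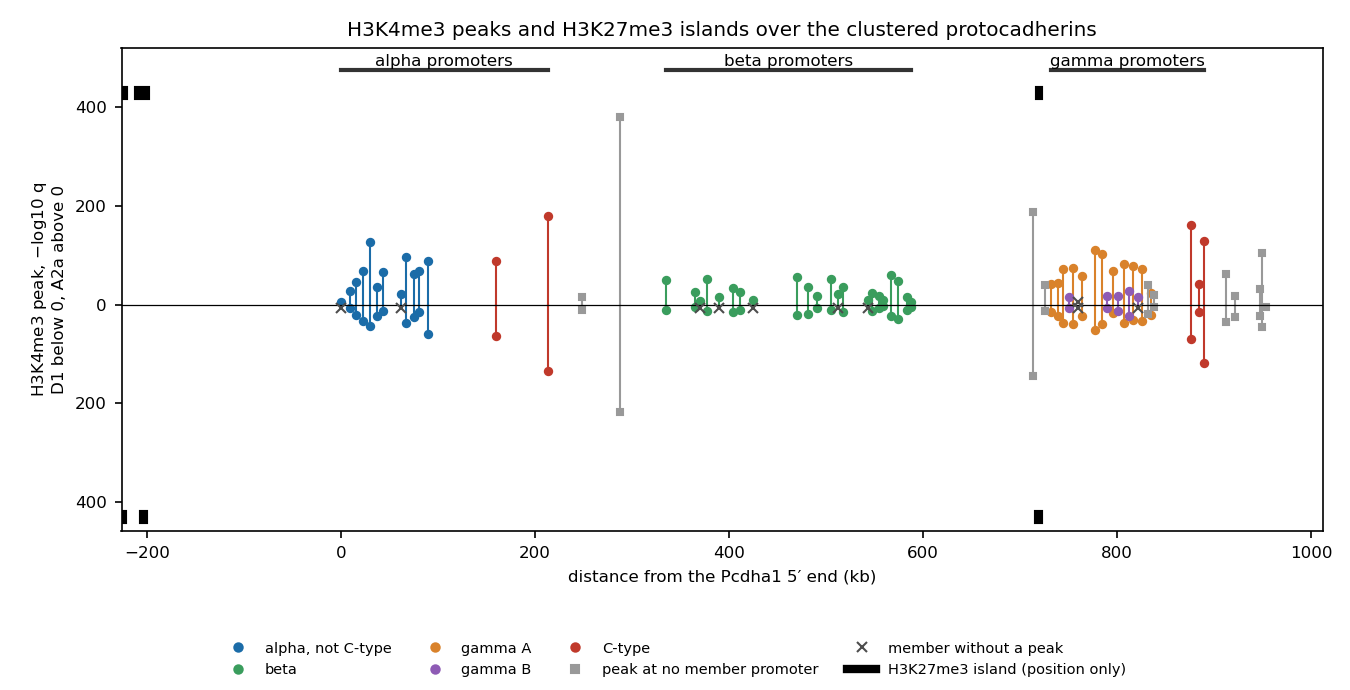
Strength of each H3K4me3 peak (−log10 q, linear axis; A2a above 0 and D1 below 0) against its distance in kb from the 5′ end of Pcdha1, coloured by subfamily, with grey squares for peaks at no member promoter, crosses for members without a peak and black bars for H3K27me3 islands, whose height has no meaning. No bar lies over a cluster, and the tallest grey line is the peak between the alpha and beta clusters.

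By significance the promoter peaks ranked below those of other genes in both lists. By median fold enrichment they stood above all protein-coding genes in A2a and below them in D1. Each peak has a fold enrichment over background and a −log10 q, both taken at its summit. The −log10 q also grows with the number of reads. In A2a the median −log10 q over the 56 genes was 43.2, at the 44.5th percentile of the list, where the peaks of all protein-coding genes had a median at the 72.1st percentile. The median fold enrichment was 8.44, with a range from 3.09 to 15.2, where all protein-coding genes had a median of 7.65. In D1 the median −log10 q over 48 genes was 20.5, at the 34.4th percentile, against the 71.0th for all protein-coding genes, and the median fold enrichment was 6.34, with a range from 2.69 to 10.9, against a median of 7.52 over all protein-coding genes. Ranked by fold enrichment in place of −log10 q, the median member stood at the 72.5th percentile in A2a and the 50.0th in D1, against the 62.9th and the 65.5th for all protein-coding genes.

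Member peaks were narrow. Their median width was 799.5 bp in A2a and 616 bp in D1, where the promoter peaks of all protein-coding genes had medians of 1622 and 1517 bp. Peaks of at most 1000 bp were found at 43 of 56 members (76.8%) in A2a, against 10.7% of protein-coding genes with a peak, and at 42 of 48 (87.5%) in D1, against 14.7%.

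Member peaks also lay to one side of the 5′ end, over the first exon. The upstream edge was at most 200 bp upstream of the annotated 5′ end at 51 of 56 members (91.1%) in A2a and at 43 of 48 (89.6%) in D1, where the share over all protein-coding genes was 23.1% and 25.5%. Relative to the 5′ end, the median upstream edge was at -20.5 bp in A2a, against -448 bp over all protein-coding genes. The summit lay downstream of the 5′ end at 55 of 56 members (98.2%) in A2a and 46 of 48 (95.8%) in D1, against 79.0% and 76.0% of protein-coding genes. In both lists the same 5 genes had an edge further upstream, namely Pcdhac1, Pcdhac2, Pcdhgc3 and Pcdhgc4, which are C-type, and Pcdhb1, the first beta gene. At the other extreme the peak began furthest inside the gene at Pcdhb22, whose edge was 522 bp downstream of the 5′ end in A2a and 532 bp in D1. Next was Pcdhga12, where the edge was 389 and 386 bp downstream. Other members also had the whole peak inside the gene, and the median upstream edge of the beta genes was 13 bp downstream in both lists.

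Peaks of like −log10 q were also set side by side. These are not of like fold enrichment. In A2a its median in the range compared was 10.2 for members and 7.50 for protein-coding genes. Among genes with an A2a −log10 q between 20.96 and 69.4, the quartiles of the members, the upstream edge was within 200 bp at 26 of 28 members (92.9%) and at 30.9% of 1756 protein-coding genes, and the width was at most 1000 bp at 24 members (85.7%) and at 23.6% of the protein-coding genes. Between the D1 quartiles, 12.6 and 33.7, the edge was within 200 bp at 23 of 24 members (95.8%), against 41.3% of 1070 genes, and all 24 were at most 1000 bp wide, against 47.9%.

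**Figure D3:**
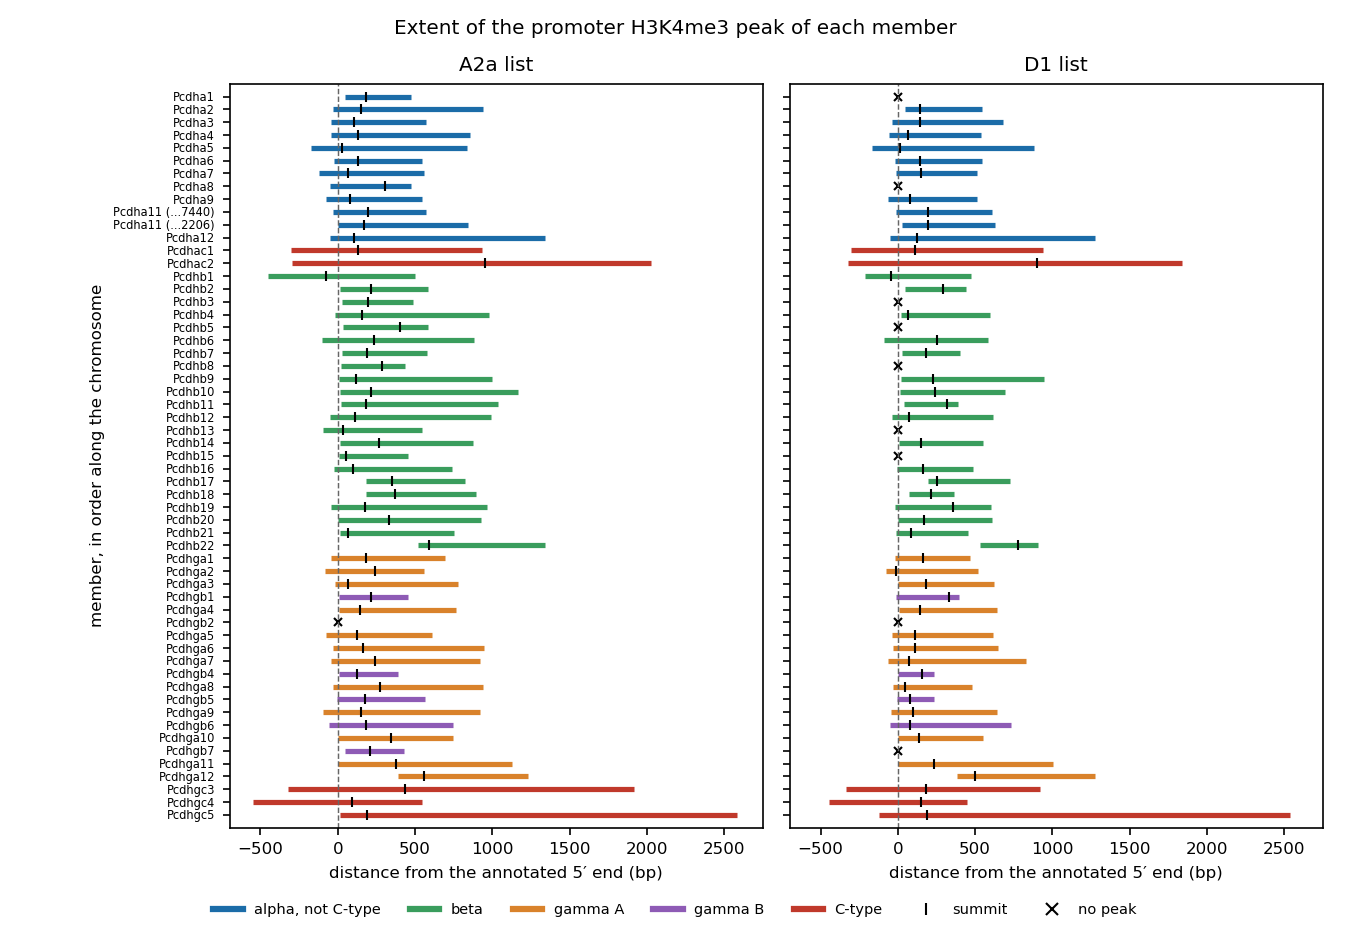
Extent of each member's promoter H3K4me3 peak, as distance in bp from the annotated 5′ end (dashed line, positive into the gene), in the A2a list (left) and the D1 list (right), with a tick at the summit and a cross where no peak was listed. Most bars start near 0 and run into the gene, and the bars that extend furthest to the right belong to Pcdhac2, Pcdhgc3 and Pcdhgc5 in A2a and to Pcdhac2 and Pcdhgc5 in D1.

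Sequence around the 5′ ends was counted in the GRCm38 genome. The 1000 bp downstream held a median of 37 CpG dinucleotides and the 1000 bp upstream a median of 10, where all protein-coding genes had medians of 36 and 19. More CpG lay downstream than upstream at 55 of 57 members (96.5%), against 72.8% of protein-coding genes. Beta genes had fewer downstream CpG, with a median of 19, than alpha genes outside the C-type (44), gamma A genes (44), gamma B genes (40.5) and C-type genes (52). Over the members with a peak, the downstream CpG number and the percentile of the peak had a Spearman correlation of 0.508 in A2a (n = 56) and 0.482 in D1 (n = 48), and for the upstream number it was -0.114 and -0.073. Median A2a percentiles also differed by subfamily, at 35.3 in beta, 51.1 in alpha outside the C-type, 53.5 in gamma A, 28.9 in gamma B and 72.5 in C-type genes. No correlation was computed within a subfamily, and the part of subfamily in these values was not tested. These genes share their library, their locus and much of their sequence, and no test was made.

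The 4 letters CGCT, the core of an element known from protocadherin promoters, occurred on either strand between 250 bp upstream and 50 bp downstream of the 5′ end at 55 of 57 members (96.5%), the exceptions being Pcdhb22 and Pcdhga12, and at 67.1% of all protein-coding genes. At both genes the peak began at least 386 bp inside the annotated 5′ end. The nearest RefSeq start of Pcdhb22 lay 482 bp from the 5′ end used here, and that of Pcdhga12 was the same position, so for Pcdhb22 these values depend on the annotation. A match to so short a word is a description of the window and not a binding site.

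Fold enrichment differed by subfamily. Alpha genes outside the C-type and gamma A genes were highest by fold enrichment, with medians of 10.7 (12 genes) and 10.5 (12 genes) in A2a and of 8.03 (10 genes with a peak) and 7.58 (12 genes) in D1. Beta genes had medians of 7.91 in A2a (22 genes) and 5.59 in D1 (17 genes). Gamma B genes were lower, with 5.36 over the 5 with a peak in A2a and 5.0 over the 4 in D1. In A2a the fold enrichments ran from 3.71 to 15.2 in the alpha genes outside the C-type, from 3.90 to 12.1 in gamma A, from 3.78 to 12.1 in beta and from 3.09 to 6.79 in gamma B. The ranges overlapped, and the order is that of these lists alone.

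C-type genes were unlike one another. Their median fold enrichment was 4.90 in A2a and 5.54 in D1, while their median percentile by −log10 q was the highest of any subfamily, at 72.5 and 61.5. Their median width was 2236 bp in A2a, above the 1622 bp of all protein-coding genes, and 1254 bp in D1, below the 1517 bp of all protein-coding genes. Pcdhac2, with its 5′ end at chr18:37143503, had the highest −log10 q of all members in both lists, 180 in A2a and 135 in D1, in peaks of 2318 and 2158 bp. It was 4.90-fold enriched in A2a and 5.54-fold in D1, and its summit lay 951 and 897 bp inside the gene.

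Pcdhac1, at chr18:37090013, had a narrower peak than Pcdhac2, with widths of 1236 bp in A2a and 1242 bp in D1. Its fold enrichment was higher, at 9.21 in A2a and 10.3 in D1, and its −log10 q was lower, at 88.3 and 64.6. In the gamma cluster, Pcdhgc3 was 8.46-fold enriched with a −log10 q of 161 in A2a, the highest of that cluster, and 7.51-fold with 70.1 in D1. Pcdhgc5 was 3.97-fold enriched with a −log10 q of 128 in A2a and 4.79-fold with 118 in D1, where it was the highest of the cluster, and its peaks were the widest of any member at 2569 and 2664 bp. Pcdhgc4 was the weakest C-type gene, at 3.54-fold with a −log10 q of 41.8 in A2a and 2.69-fold with 14.8 in D1. Of the 5 C-type genes, 3 (Pcdhac1, Pcdhac2 and Pcdhgc5) had both a higher fold enrichment and a higher percentile in D1 than in A2a.

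Among the remaining alpha genes the highest fold enrichment was at Pcdha9, with 15.2 in A2a and 10.9 in D1. These values were also the highest of all members in both lists. The weakest peak was at Pcdha1, the first gene of the locus, which had no D1 peak. Its A2a peak had a fold enrichment of 3.71 and a −log10 q of 5.03. Its neighbour Pcdha2 had the lowest D1 percentile of the alpha genes with a peak, 15.1, at a fold enrichment of 4.56, and stood at the 37.5th percentile in A2a at 7.36-fold. By significance Pcdha5 led this group in A2a, with a −log10 q of 128 at 12.4-fold, and Pcdha12 led it in D1, with 58.7 at 8.94-fold in a peak of 1326 bp. Pcdha7 had one of the widest gaps between the lists, at 13.5-fold in A2a and 6.01-fold in D1. The genes that carry the symbol Pcdha11 had near-equal peaks in A2a, at 12.7-fold each, and 7.78-fold and 5.83-fold in D1. They also had the highest share of 100-base stretches around the 5′ end found again elsewhere in the locus, up to 19.9%, and the effect of this on read mapping was not tested.

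Beta genes ran from Pcdhb19, at the 50.1st percentile in A2a with 10.2-fold, down to Pcdhb22, at the 7.78th with 3.78-fold. In D1 the highest beta gene was Pcdhb20, at the 40.7th percentile with 9.53-fold, and the lowest was Pcdhb18, at the 0.635th percentile with 3.11-fold and a −log10 q of 2.83, close to the caller's threshold. The beta genes with the highest fold enrichment in A2a were Pcdhb12 (12.1-fold), Pcdhb1 (11.2-fold) and Pcdhb20 (11.1-fold). In D1 these genes stood at 5.39-fold, 5.18-fold and 9.53-fold. Pcdhb1, the first beta gene, was the only gene with a summit upstream of the 5′ end in A2a, at -73 bp.

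In the gamma cluster, A and B genes are interspersed along the chromosome, and their fold enrichments were largely separate. The highest gamma A gene by fold enrichment in A2a, Pcdhga7, had 12.1-fold, and the highest gamma B gene, Pcdhgb4, had 6.79-fold. In A2a, 11 of the 12 gamma A peaks lay above every gamma B peak by fold enrichment, the exception being Pcdhga12 at 3.90-fold. By −log10 q the gamma A genes were led by Pcdhga6, with 111 in A2a and 50.7 in D1. The 5 gamma B genes with an A2a peak had −log10 q values from 15.6 at Pcdhgb1 to 27.03 at Pcdhgb6, and the lowest gamma A value was 22.8, at Pcdhga12. Pcdhgb1 had the lowest percentile of the cluster in both lists, 27.9 in A2a and 9.71 in D1. Downstream CpG numbers of the subfamilies were close, with medians of 44 and 40.5.

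**Figure D4:**
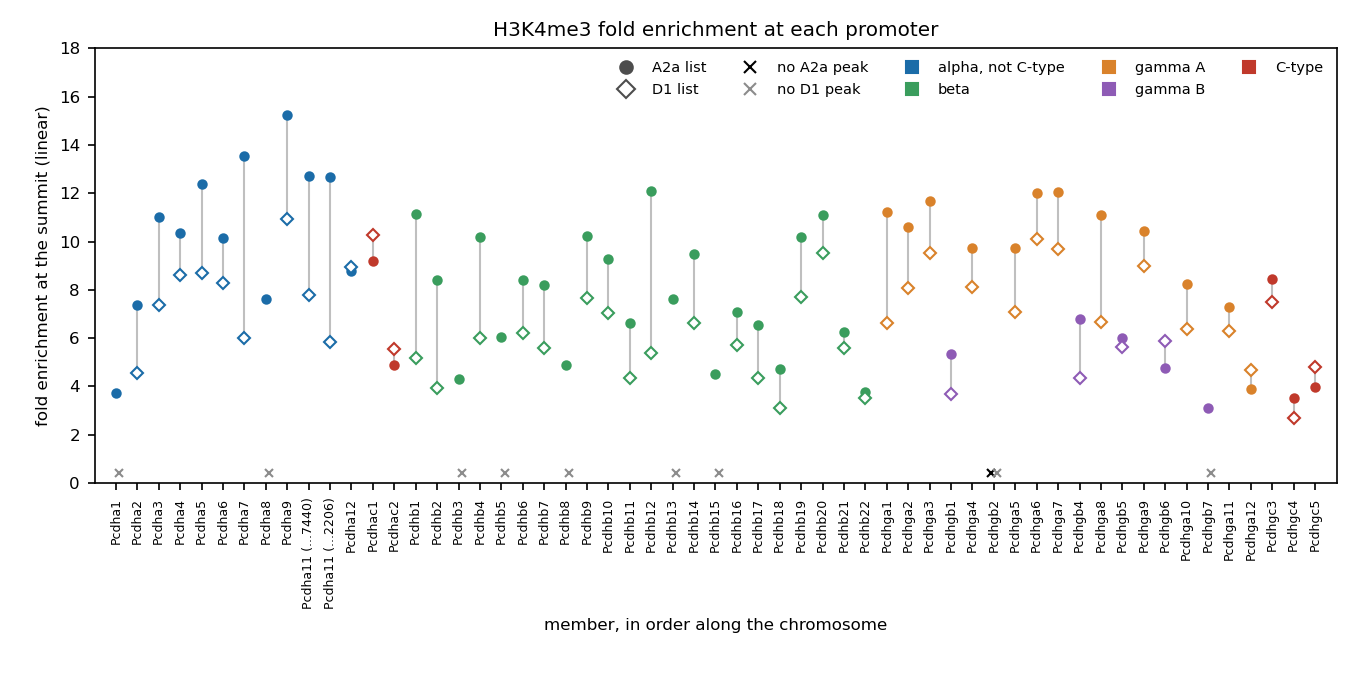
Fold enrichment at the summit of the promoter H3K4me3 peak (linear axis from 0) for each of the 57 members in chromosome order, A2a as filled circles and D1 as open diamonds joined by a line, coloured by subfamily, with crosses at the foot where a list has no peak. The A2a value is the higher in 42 of the 48 genes with both, gamma A points stand above gamma B points except at Pcdhga12, and 3 of the 5 C-type genes have the D1 value on top.

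Across the 2 cell types, 48 members had a peak in both lists (84.2%, against 55.6% of all protein-coding genes). In A2a but not in D1, a peak was present at 8 members, against 2.59% of protein-coding genes, and in D1 but not in A2a at 0, against 0.164%. The 8 were Pcdha1 and Pcdha8 in the alpha cluster, Pcdhb3, Pcdhb5, Pcdhb8, Pcdhb13 and Pcdhb15 in the beta cluster, and Pcdhgb7 in the gamma cluster. One gene, Pcdhgb2, had no peak in either list. None of its 100-base stretches around the 5′ end recurred in the locus, and it had 38 CpG in the 1000 bp downstream.

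The genes without a D1 peak were weak in A2a. Pcdha1 had an A2a −log10 q of 5.03, Pcdhb3 of 7.13, Pcdhb8 of 9.41 and Pcdhb15 of 9.43. Pcdhb5 had 14.4 and Pcdhgb7 15.6, and Pcdha8 and Pcdhb13 had 21.8 each. Their median was 11.9, where the 48 genes with both peaks had a median of 50.3. By rank in the A2a list, 4 of 6 members below the 25th percentile had no D1 peak (66.7%), against 68.9% of 628 protein-coding genes there, and 4 of 30 from the 25th to the 50th (13.3%), against 6.99% of 1760. From the 50th to the 75th percentile and above it, 0 of 18 and 0 of 2 members had none, against 0.217% and 0.052% of protein-coding genes. The D1 list was also shorter, with 20080 peaks against 22551, and the read depth of the pooled libraries is unknown.

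Where both lists had a peak, the A2a value was usually the larger. Fold enrichment was higher in A2a at 42 of 48 members (87.5%), against 58.6% of 12204 protein-coding genes with both peaks, with a median ratio of 1.32 against 1.03. The percentile was higher in A2a at 44 of 48 (91.7%), against 65.3%. The A2a list is the longer, with 22551 peaks against 20080. It was also shortened from its weak end to the length of the D1 list, which lowers every A2a rank by construction. The percentile was then higher in A2a at 36 of 47 members (76.6%), against 52.2% of 12169 genes. Among genes with an A2a −log10 q between the members' quartiles, fold enrichment was higher in A2a at 24 of 26 members (92.3%) and at 77.1% of 1726 protein-coding genes, with median ratios of 1.40 and 1.18. The paper also reported more global H3K4me3 signal in peaks in A2a than in D1 before its normalisation, and hypothesised sources other than biology. With pooled lists, a difference between cell types and a difference between libraries cannot be told apart.

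All 17 beta genes with both peaks had the higher fold enrichment in A2a, as did 9 of 12 alpha and 16 of 19 gamma genes. The D1 value was the higher at Pcdha12 (8.94 against 8.77), Pcdhgb6 (5.88 against 4.75), Pcdhga12 (4.68 against 3.90) and the C-type genes named above. The order of the members was similar in the lists, with a Spearman correlation of 0.861 for the percentile and 0.680 for fold enrichment over the 48 genes. In D1, 9 of 48 members had exactly the fold enrichment of another member, against 2 of 56 in A2a.

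By −log10 q, the strongest H3K4me3 peak of the locus was at no promoter of a member. It lay between the alpha and beta clusters, at chr18:37216845-37218386 in A2a, where it was 14.0-fold and had a −log10 q of 381, and at chr18:37217371-37218392 in D1, where it was 12.51-fold and had a −log10 q of 218. It ranked 1 of the peaks in the locus in both lists and stood at the 99.9th and 99.4th percentile of each list by −log10 q. By fold enrichment it was below Pcdha9 in A2a (15.2) and below Taf7 in D1 (13.0). The nearest annotated 5′ end, that of the processed transcript Gm10544, was 39.6 kb from its summit, and none of the 57 genes spanned it. The 3 long protein-coding models that start among the alpha promoters, Gm42416, Gm37013 and Gm37388, run across it. An enhancer of the alpha promoters is known to lie downstream of the alpha constant exons, and whether this peak coincides with it was not tested.

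The other peaks of the locus at no member promoter were at annotated starts, between or inside the clusters. The peak ranking next by −log10 q in both lists was at Taf7, with 11.6-fold in A2a and 13.0-fold in D1. The Taf7 promoter window met the edge of the island in D1 and not in A2a, where the island was listed from a later start. The remaining peaks were within 0.320 kb of the starts of Gm10544, the lincRNA 3222401L13Rik, the processed transcript Gm26672 and Pcdhgb8, which the annotation classes as a polymorphic pseudogene and which was therefore not among the 57. Slc25a2, a mitochondrial carrier gene that starts between the beta and gamma clusters, had neither mark in either list. The starts of Gm42416, Gm37013 and Gm37388 share their peaks with Pcdha4, Pcdha6 and Pcdha7, so these are not further peaks.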

How the data were processed

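CUT&RUN reads from INTACT-isolated striatal nuclei had been processed by the authors before deposit. Reads were aligned to mm10 with Bowtie2 2.1.0, per the labels' processing notes, kept at a mapping quality of at least 20, cleared of duplicates with Picard 2.23.4 and limited to inserts of 150 to 500 bp, per the study's methods. For H3K4me3 (Abcam antibody) the authors called peaks on pooled samples with MACS2 2.2.7.1 at a q-value of 0.01, and the deposited peak lists give for each peak a display score, a fold enrichment over background, −log10 p and −log10 q values, and the summit offset. For H3K27me3 (Active Motif antibody) the authors called islands with SICER (window 200 bp, gap 600 bp, FDR 0.01), and the deposited lists give a read count per island. The score and the −log10 p were not used. Of 28 samples, 8 are pooled in the 4 lists and 20 were not analysed here. The study states a depth of about 3 to 20 M reads per sample, the depth of single libraries is unknown, and the number of reads behind a list sets which weak peaks and islands it holds.

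The lists were read against GENCODE M21 and the GRCm38 genome in Python 3.11.15 with numpy 2.4.6, scipy 1.17.1 and matplotlib 3.10.9. Promoters were windows of 2 kb before and 1 kb after the annotated 5′ end, and an overlap of 1 bp counted. Where a promoter had several peaks the one with the highest −log10 q was used. A percentile is the share of a list below a value, with a tie counted as 0.5. The overlap step recovered 200 of 200 simulated promoter peaks. The peak lists are not normalised to each other, so ranks within a list are given beside fold enrichment. Replicates cannot be separated, so no test, error or interval is given.

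The rule for members uses annotation only, but the gene family and the other gene lists were chosen with earlier results of these data known. Named in full were the C-type genes, the highest and lowest percentile of each cluster in each list, genes lacking a peak, genes whose marks differ between lists and other protein-coding genes starting in the locus; Pcdha5, Pcdha7, Pcdha9, Pcdha12, Pcdhb12, Pcdhga6, Pcdhga7, Pcdhga12, Pcdhb1, Pcdhgb4, Pcdhgb6 and the genes named Pcdha11 were chosen after their values were seen. Alternatives were the promoter window, the 5′ ends used, the overlap, stricter thresholds, peak assignment, equal list sizes, the ranking measure, merged islands and cluster extent. No member's DNA or protein sequence is printed.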

Additional observations from a re-analysis of the deposited data

How the results depend on the processing

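Under 75 alternatives to 16 summary values, 70 gave the same value or one within the stated limits. The limits were 1.5 times for a count and the 95% Wilson interval of the percentile for a median percentile. That interval was computed with the number of peaks in the whole list, so it serves as a limit and does not measure the uncertainty of the members' median. The number of members with a promoter H3K4me3 peak stayed between 54 and 56 in A2a and between 46 and 48 in D1. The numbers with a promoter H3K27me3 island or with both marks, and the percent of each cluster covered by islands, were 0 under every alternative run. A narrower window, a larger overlap, stricter thresholds, nearest-gene assignment and a shorter list cannot raise a value of 0. Merging across 5 kb could not either, since the island-free stretches over the clusters were 289.0 kb or longer. For these values such alternatives were no check, and they are counted among the 70. The median percentile of the promoter peaks moved. In A2a it was 44.5 by −log10 q, 42.2 among peaks with a −log10 q of at least 5, 38.3 among as many of the strongest peaks as the D1 list holds, and 72.5 by fold enrichment. In D1 it was 34.4, 30.2 among peaks with a −log10 q of at least 5, and 50.0 by fold enrichment. Removing weak peaks shortens the list from below, which lowers every remaining rank by construction. All protein-coding genes with an A2a peak had a median at the 72.1st percentile by −log10 q and at the 62.9th by fold enrichment.

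No paired analysis was possible because each list pools its samples, and for the same reason no sample could be left out in turn. Pooling also means that a difference between A2a and D1 could rest on 1 library. The depth behind each list is unknown, so an absent peak is one not listed at that depth. In an alternative chosen after seeing the data, equal list sizes, the share of members with the higher percentile in A2a moved from 91.7% to 76.6%.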

Other observations

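Genes that act on or with the clustered protocadherins were read in the same way, from lists chosen with earlier results known. Of 13 genes for regulators of these promoters, 11 had a promoter H3K4me3 peak in each list, and the exceptions in both were Stag1, a cohesin subunit, and Trim28, a corepressor. The share over all protein-coding genes was 58.2% in A2a and 55.8% in D1. Each gene was read at its outermost annotated 5′ end only. A peak at another start of Stag1 or Trim28 would not be counted, so these genes are not shown to lack the mark. Ctcf, which encodes the insulator protein that binds these promoters, was 5.34-fold enriched in A2a and 6.42-fold in D1, with no island. Smchd1, which encodes a chromatin protein known to silence clustered protocadherins, was 7.85-fold and 8.31-fold enriched, and Wapl, which encodes the cohesin release factor, 8.03-fold and 8.16-fold. Islands were present at 2 of the 13 in both lists, against 21.6% of all protein-coding genes in A2a and 15.3% in D1. The genes were Dnmt3b, a DNA methyltransferase (2.80 kb in A2a and 4.0 kb in D1), and Wiz, a zinc-finger gene (10.2 kb and 2.40 kb). Setdb1, a histone H3K9 methyltransferase gene, had the highest fold enrichment of these regulators, 14.4 in A2a and 12.8 in D1.

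Of 10 genes for partners of the shared cytoplasmic part, among them kinases and the WAVE complex that controls actin, all 10 had a promoter peak in each list. An island was present at 1 in A2a, Fyn, at 2.40 kb and the 27.8th percentile of islands by reads, and at 0 in D1. All protein-coding genes had a promoter peak at 58.2% in A2a and 55.8% in D1, and a promoter island at 21.6% and 15.3%.

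Past the end of the gamma cluster, H3K4me3 peaks were listed that lay in no member. One at chr18:37841895-37843074 in A2a (10.4-fold) and at chr18:37841952-37843131 in D1 (8.14-fold) began within 100 bp of the annotated end of the cluster. Its summit lay 12.1 kb in A2a and 11.98 kb in D1 from the nearest annotated 5′ end. Peaks were read to 50 kb past the end of the cluster only. Within that limit the further peaks lay inside Diaph1, a formin gene that neighbours the gamma cluster, 3 in A2a and 4 in D1.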
